A study of Mus musculus with 7 samples.

Results

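The hexokinase genes Hk1, Hk2 and Hk3, the aldolase genes Aldoa and Aldoc, the lactate dehydrogenase genes Ldha and Ldhb, and the glucose-6-phosphatase gene G6pc2 were followed in sorted mouse beta cells. They were taken as all probe sets whose platform annotation names 1 of these 8 genes, alone or among several, which gave 26 of 35556 probe sets, 10 of them with a single gene symbol. The cells came from ICR mice at postnatal day 25 that carried an insulin-Cre transgene and a Rosa26-LSL-YFP reporter, in both groups. The insulin promoter drives the Cre, so the reporter marks cells in which that promoter has been active. One group of 3 mice (weaned replicates 4, 5 and 12) was weaned prematurely at day 18, and the other group of 4 mice (suckling replicates 2, 9, 11 and 12) was still suckling. From each mouse 2000 to 6000 fluorescent cells were sorted, amplified and hybridised to 1 Affymetrix array, and each mouse is 1 replicate.

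A beta cell measures blood glucose by the rate at which it phosphorylates and burns it. G6pc2, an islet form of the glucose-6-phosphatase catalytic subunit, works against that step by turning glucose 6-phosphate back into glucose. High-affinity hexokinases (Hk1, Hk2, Hk3), lactate dehydrogenase A (Ldha) and the lactate and pyruvate transporter Slc16a1 are held low in mature beta cells and are called disallowed genes, since they would let the cell respond at low glucose or divert pyruvate from the mitochondria. Early weaning replaces fat-rich milk with carbohydrate-rich food while beta cells are still maturing, and the comparison asks how their expression differs from that of suckling mice of the same age.

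The signal of the arrays was checked before the members were read. All 13 measured markers of beta cells lay above the background level described below. Iapp (islet amyloid polypeptide) was the brightest, at 12.48 ± 0.09 log2 units (SD, n = 3) in weaned and 12.51 ± 0.05 (n = 4) in suckling mice. The insulin gene Ins2 read 8.25 in weaned and 8.27 in suckling mice, and Trpm5 was the dimmest, at 5.41 and 5.18. The alpha and delta cell hormone genes Gcg and Sst were bright too, with suckling means of 12.13 and 12.01 (whether other sorted cells or free RNA account for this was not tested). Acinar markers differed most between arrays. Over 17 measured markers of 19 listed, the mean lay at 4.00 to 6.24 in weaned mice and 4.38 to 7.97 in suckling mice, highest on suckling replicates 2 and 9. The sample descriptions give all weaned arrays 1 letter-and-number code and all suckling arrays another, so a factor behind that code and weaning cannot be told apart. As a guide to background served 1027 olfactory receptor probe sets, genes not thought to be used by islets, with a median of 2.09 log2 units and a 95th percentile of 3.27. In bulk RNA, fewer cells of a type and less RNA per cell cannot be told apart. Brightness also depends on the probes, so levels are compared between mice and not between genes.

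None of the 8 members passed an adjusted p of 0.05 (limma, Benjamini-Hochberg over 23410 probe sets with a gene symbol), where 0.0342% of all those probe sets passed. Before adjustment, p was under 0.05 for 2 members, Aldoc and Ldhb, both higher in mean in weaned mice, beside 7.39% of all probe sets. Groups did not overlap for the same 2 members, beside 7.28% of all probe sets, and for a dim Hk1 probe set described further on. With the brightest single-symbol probe set per gene (10414661 for Hk1, described further on), 6 members had the higher mean in weaned mice and 2 the lower, with a median log2 difference of 0.08, beside 50.1% of genes higher and a median of 0.00047 over all 19938 genes.

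**Figure D1:**
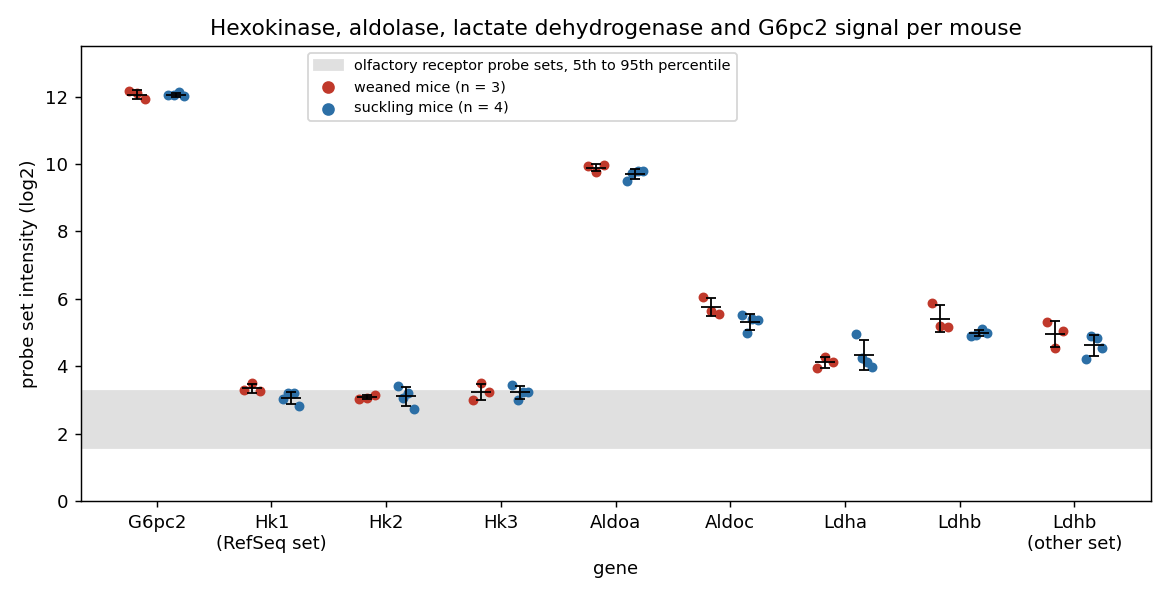
Probe set intensity on a log2 scale for each gene; each point is 1 mouse (red, 3 weaned; blue, 4 suckling), black bars are means with SD, and the grey band spans the 5th to 95th percentile of 1027 olfactory receptor probe sets. G6pc2 sits near 12.06 in both groups, the 3 hexokinases lie at the upper edge of the band, and the weaned points of Aldoc and of the brighter Ldhb probe set lie above all suckling points.

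G6pc2, the enzyme that opposes glucose phosphorylation, did not differ beyond the spread between mice. It read 12.15, 12.10 and 11.91 log2 units in weaned replicates 4, 5 and 12, and 12.03, 12.04, 12.14 and 12.02 in suckling replicates 2, 9, 11 and 12. The groups overlapped, and the whole range over 7 mice was that of the weaned arrays. The difference, weaned minus suckling, was 0.0018 (SE 0.10, adjusted p = 0.999, limma), with a 95% interval of -0.23 to 0.23. Among the relatives of G6pc2, the liver and kidney form G6pc was not above background (2.80 ± 0.33, SD, n = 3, against 2.76 ± 0.17, n = 4). The widely expressed form G6pc3 read 7.86 ± 0.19 in weaned and 8.02 ± 0.27 in suckling mice, a difference of -0.16 (SE 0.17). Slc37a4, which carries glucose 6-phosphate into the endoplasmic reticulum where these enzymes act, differed by -0.02 (SE 0.22). None of these passed, with adjusted p of 0.845 to 0.999 (limma).

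The hexokinases need their probe sets sorted out first. Of the 18 probe sets whose annotation includes Hk1, 16 also name Rpl17, a protein of the large ribosomal subunit, and these 16 carry a RefSeq transcript of Rpl17 and none of Hk1. Their only tie to Hk1 in the annotation is the sequence record J05277, which all 18 share. Their means ran from 9.76 to 11.23 log2 units. Another probe set (10414661) carries Hk1 as its single symbol, by J05277 alone, and read 9.34 ± 0.20 (SD, n = 3) in weaned and 9.19 ± 0.05 (n = 4) in suckling mice. Its groups overlapped, with a difference of 0.15 (SE 0.12, 95% interval -0.11 to 0.42, adjusted p = 0.793, limma). As that record is also the one that ties the Rpl17 probe sets to Hk1, the annotation does not settle which transcript this probe set measures. Just 1 probe set (10369541) carries RefSeq transcripts of Hk1. It read 3.28, 3.49 and 3.26 in weaned replicates 4, 5 and 12, and 3.02, 3.21, 3.21 and 2.83 in suckling replicates 2, 9, 11 and 12. All 3 weaned values lay above all 4 suckling values, but the mean over all arrays was not above the background level of 3.27. The difference was 0.28 (SE 0.13, 95% interval -0.01 to 0.57, adjusted p = 0.682, limma).

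**Figure D2:**
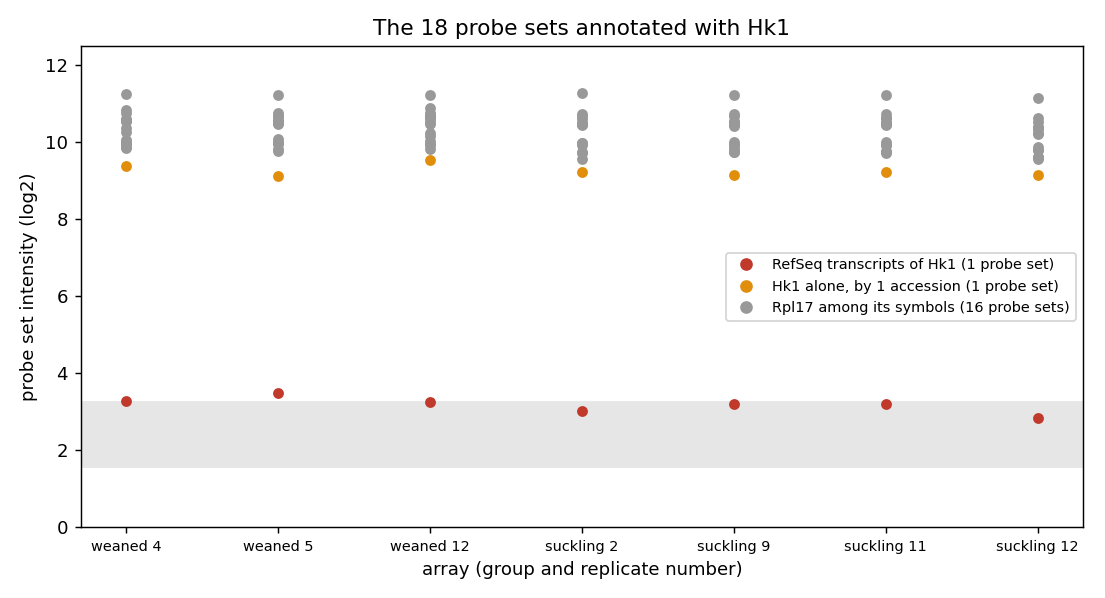
Log2 intensity of each of the 18 probe sets annotated with Hk1 on each of the 7 arrays; the grey band is the 5th to 95th percentile of olfactory receptor probe sets. The 16 probe sets that also name Rpl17 (grey points) have means of 9.76 to 11.23, and the probe set with RefSeq transcripts of Hk1 (red) stays between 2.83 and 3.49.

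The Rpl17 probe sets would change the picture of Hk1 if they were read as hexokinase. Taking the brightest probe set per gene, as the analysis plan did, gives Hk1 a level of 11.24 ± 0.02 (SD, n = 3) against 11.22 ± 0.06 (n = 4) and a difference of 0.02 (SE 0.09). All 16 had the higher mean in weaned mice, by 0.02 to 0.28, and in 11 of them the groups did not overlap with the weaned mice above, as in 4.01% of all probe sets. They carry the same Rpl17 transcript, so they are not 16 independent measurements, and the lowest adjusted p among them was 0.651 (limma). For Hk1 the RefSeq probe set is used from here on unless another is named, a choice made after the values were seen.

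Hk2, the insulin-responsive hexokinase of muscle and fat, read 3.04, 3.07 and 3.14 in weaned mice and 3.43, 3.07, 3.21 and 2.75 in suckling mice, in the order of replicates given above. Its group means were 3.08 ± 0.05 and 3.11 ± 0.29, with suckling replicate 2 the highest and suckling replicate 12 the lowest of all 7. Hk3, the hexokinase of myeloid cells, read 3.01, 3.49 and 3.24 in weaned and 3.46, 2.997, 3.24 and 3.23 in suckling mice. The groups overlapped in both genes, and neither mean exceeded the background level. The differences were -0.03 (SE 0.16) for Hk2 and 0.01 (SE 0.15) for Hk3, with adjusted p of 0.978 and 0.990 (limma). Hkdc1, a further hexokinase-like enzyme, was not above background either and differed by 0.15 (SE 0.12). At this level these probe sets cannot size a change in Hk2, Hk3 or Hkdc1, nor can the RefSeq probe set of Hk1.

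Aldoa, the aldolase of muscle and most tissues, read 9.94, 9.76 and 9.96 log2 units in weaned mice and 9.49, 9.73, 9.79 and 9.79 in suckling mice. The groups overlapped, as weaned replicate 5 lay below suckling replicates 11 and 12, and suckling replicate 2 was the lowest of all. The difference was 0.19 (SE 0.11, 95% interval -0.08 to 0.45, adjusted p = 0.746, limma). Aldoc, the aldolase of brain, read 6.06, 5.63 and 5.57 in weaned and 5.51, 4.98, 5.39 and 5.38 in suckling mice. Every weaned value was above every suckling value, with a gap of 0.06 between the nearest mice and with weaned replicate 4 well above the other 2. The means were 5.75 ± 0.27 (SD, n = 3) and 5.31 ± 0.23 (n = 4), 1.36-fold apart. The log2 difference of 0.44 (SE 0.17, 95% interval 0.05 to 0.82) did not pass over all probe sets (adjusted p = 0.651, limma), and without weaned replicate 4 it was 0.29.

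Lactate dehydrogenase is a tetramer of A subunits, which favour lactate production, and B subunits, which favour its use. The promoters of both genes are shown to set the regulatory sequence of the disallowed A subunit beside that of the B subunit. Each is the 250 bases before the annotated start of the gene (RefSeq, GRCm38.p6), 5′ to 3′ on the strand of the gene, with ACGTG and its complement on the other strand (CACGT) in capitals. ACGTG is the core of the hypoxia response element bound by HIF1, and inside CACGTG both strands carry it, so that the marked letters overlap there.
Ldha, chr7:46845554-46845803, plus strand: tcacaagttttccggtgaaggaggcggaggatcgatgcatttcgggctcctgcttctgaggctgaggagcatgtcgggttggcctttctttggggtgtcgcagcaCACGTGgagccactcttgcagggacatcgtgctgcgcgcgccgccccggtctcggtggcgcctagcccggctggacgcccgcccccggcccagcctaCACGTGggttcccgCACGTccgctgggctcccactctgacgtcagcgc
Ldhb, chr6:142507958-142508207, minus strand: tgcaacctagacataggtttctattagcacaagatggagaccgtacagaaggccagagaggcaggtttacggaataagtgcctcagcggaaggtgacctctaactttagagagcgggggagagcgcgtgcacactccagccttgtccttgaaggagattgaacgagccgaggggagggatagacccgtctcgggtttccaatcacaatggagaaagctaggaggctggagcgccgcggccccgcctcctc
The Ldha window held ACGTG 2 times on the printed strand and 3 times on the other, and CACGTG 2 times, while the Ldhb window held none. Of 32851 promoter windows of the same length, 16.6% held ACGTG on either strand and 6.02% held CACGTG. The second annotated Ldha start had no match, and over the 8 members 6 of 14 windows had one, of which a pair of overlapping Aldoa windows hold the same site. A match says which letters are present and nothing about binding.

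Ldha read 3.95, 4.27 and 4.14 log2 units in weaned replicates 4, 5 and 12, and 4.97, 4.24, 4.13 and 3.99 in suckling replicates 2, 9, 11 and 12. Apart from suckling replicate 2 the groups lay within the same range. The means were 4.12 ± 0.16 (SD, n = 3) and 4.33 ± 0.44 (n = 4), above background in both groups, and the difference was -0.21 (SE 0.23, 95% interval -0.73 to 0.31, adjusted p = 0.855, limma). Suckling replicate 2 is also the array with the highest acinar marker mean (7.97) and the highest stromal marker mean (3.64, against 3.23 to 3.39 on the other arrays). Suckling replicate 9 had an acinar marker mean of 7.79 and Ldha at 4.24, and weaned replicate 5 had 4.00 and 4.27. The difference of Ldha was 0.0020 without suckling replicate 2 and -0.0046 with the acinar marker mean as a covariate. Of the stromal markers 3 of 7 were above background, and on suckling replicate 2 Col1a2, a collagen chain, was at its highest (4.33, against 3.71 to 4.17 elsewhere). Dcn, a fibroblast proteoglycan, was not above background in its mean but read 3.98 on that array and 2.56 to 3.07 on the others. Of the endothelial markers 4 of 8 were above background, and they did not share a direction on suckling replicate 2. The tight junction gene Cldn5 read 5.55 on that array and 3.99 to 5.05 elsewhere. Plvap was at its lowest there (3.56, against 3.76 to 4.11 elsewhere). Tie1 (3.42) and Esam (3.54) lay within the range of the other arrays, and Cdh5 was not above background. Of the leukocyte markers 3 of 11 were above background, and the pan-leukocyte gene Ptprc was not. The complement gene C1qa had means of 8.08 in weaned and 7.74 in suckling mice. The means were 3.72 and 3.95 for C1qb, and 3.78 and 3.86 for Cd68. On suckling replicate 2 C1qb was at its highest (4.31, against 3.59 to 4.15 elsewhere). C1qa (8.04) and Cd68 (3.73) lay within the range of the other arrays there. The part of these cells in the Ldha value of suckling replicate 2 was not tested.

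Ldhb is covered by a pair of probe sets that both carry its RefSeq transcript. The brighter one (10462035) read 5.87, 5.20 and 5.16 in weaned and 4.89, 4.93, 5.10 and 4.98 in suckling mice. All weaned values lay above all suckling values, by 0.06 between the nearest mice, and weaned replicate 4 stood apart from the other 6. The means were 5.41 ± 0.40 (SD, n = 3) and 4.98 ± 0.09 (n = 4), 1.35-fold apart, with a log2 difference of 0.43 (SE 0.18, 95% interval 0.03 to 0.84, adjusted p = 0.659, limma). Without weaned replicate 4 the difference was 0.20. The other probe set (10549097) read 5.31, 4.53 and 5.03 in weaned and 4.21, 4.89, 4.85 and 4.53 in suckling mice, and there the groups overlapped, with a difference of 0.34 (SE 0.22, adjusted p = 0.766, limma). The acinar marker mean was 4.08 on weaned replicate 4, where Ldhb was highest, and 4.00 on weaned replicate 5, where the Ldhb probe sets read 5.20 and 4.53. It was 7.97 on suckling replicate 2, where both Ldhb probe sets were lowest, and 7.79 on suckling replicate 9, where the second one was the highest of the suckling mice. With the acinar covariate the differences were 0.31 for Ldhb and 0.34 for Aldoc, both in the same direction as before. Their unadjusted p was then 0.152 and 0.119, against 0.038 and 0.031 without it (limma). The part of acinar RNA in these differences was not tested. Immediate early genes, which respond within minutes to stimulation or handling, had the higher group mean in weaned mice, with overlapping groups. Of 12 measured, the weaned mean was the higher for 10 and the median difference was 0.38 log2 units, though none passed an adjusted p of 0.05 (limma). Their mean lay at 5.84 to 6.83 in weaned and 5.67 to 6.18 in suckling mice, highest on weaned replicate 5. With that mean as a covariate the differences were 0.44 for Ldhb and 0.47 for Aldoc.

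**Figure D3:**
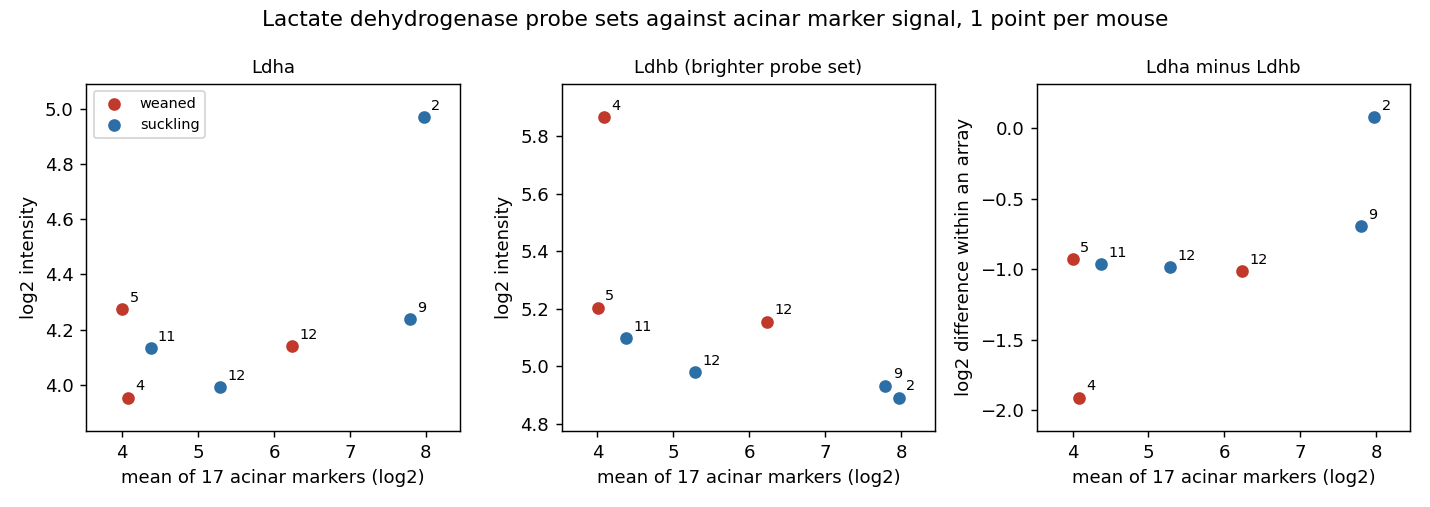
Ldha, the brighter Ldhb probe set, and Ldha minus Ldhb within each array (y axes, log2) against the mean of 17 acinar markers (x axis, log2); each point is 1 mouse with its replicate number (red, weaned; blue, suckling). Ldha is highest at 4.97 on suckling replicate 2, Ldhb is highest at 5.87 on weaned replicate 4, and the other 5 mice lie within a narrower range on both.

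Isoform balances were compared within arrays, as the log2 value of 1 probe set minus that of another, which shows unequal change and does not rank the isoforms. Ldha minus Ldhb was -1.91, -0.93 and -1.02 in weaned mice and 0.08, -0.69, -0.97 and -0.99 in suckling mice. The groups overlapped, and the extremes were weaned replicate 4 and suckling replicate 2. The shift between the group means was -0.64, beside SDs of 0.54 in weaned and 0.50 in suckling mice. An exact two-sided permutation over 35 splits gave p = 0.229, where 0.0286 is the smallest possible, and 0.471 adjusted over 3 balances. Leaving out weaned replicate 4 gave -0.33, and leaving out suckling replicate 2 gave -0.40. Aldoa minus Aldoc shifted by -0.25 (exact permutation p = 0.314, adjusted p = 0.471) and the planned balance of the brightest Hk1 probe set minus Hk2 by 0.05 (exact permutation p = 0.743, adjusted p = 0.743). The last sets a probe set shared with Rpl17 against one at background, so it gives no measure of hexokinase choice, and with the RefSeq probe set both terms would lie at background.

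The transporters and isoform counterparts of the members showed no difference that passed an adjusted p of 0.05 (limma). Slc2a2, the glucose transporter of rodent beta cells, read 10.11 ± 0.04 (SD, n = 3) in weaned and 10.07 ± 0.12 (n = 4) in suckling mice, a difference of 0.05 (SE 0.10). Slc2a1, the transporter of most other cells, differed by -0.10 (SE 0.14). Pkm, the widespread pyruvate kinase, differed by -0.01 (SE 0.13), and Pklr, the liver and erythrocyte form, by 0.22 (SE 0.12). Slc16a1 lay at background in both groups, at 2.80 ± 0.05 and 2.97 ± 0.27, and Ldhc, the testis form of lactate dehydrogenase, did as well. Ldhd, the mitochondrial D-lactate dehydrogenase, differed by -0.17 (SE 0.17). None of 12 measured counterparts passed the threshold, with adjusted p from 0.721 upward (limma).

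**Figure D4:**
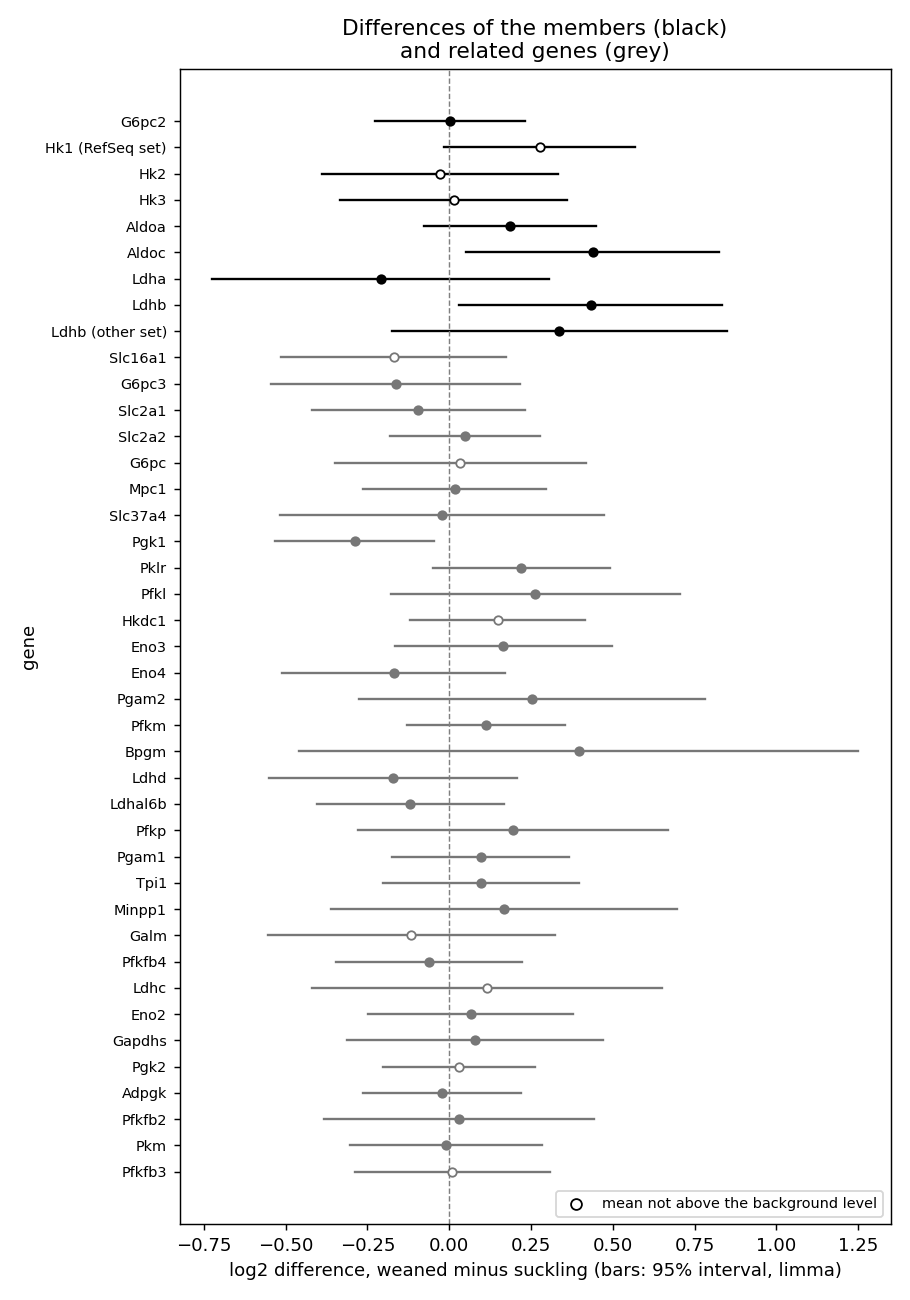
Log2 difference, weaned minus suckling (x axis; bars are 95% intervals from limma), for the members (black), and for transporters, isoform counterparts and other glycolytic enzymes (grey); open circles mark genes whose mean is not above the background level. The intervals of Aldoc and Ldhb lie just above 0 and that of Pgk1 just below it, and Bpgm has the widest interval.

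Among 25 measured glycolytic enzymes outside the members, of 31 listed, 17 had the higher mean in weaned mice and 8 the lower, with a median log2 difference of 0.08. None passed over all probe sets, beside 0.0251% of all genes. Before adjustment 1 had a p under 0.05, and its groups did not overlap, beside 7.7% and 7.32% of all genes. This was Pgk1, phosphoglycerate kinase, at 8.53 ± 0.15 (SD, n = 3) in weaned and 8.82 ± 0.07 (n = 4) in suckling mice, a difference of -0.29 (SE 0.11, adjusted p = 0.648, limma). Pgk1 pointed opposite to Aldoc and Ldhb. Of 26 glycolytic genes above background, members included (Hk1 through 10414661), 10 were highest on weaned replicate 4 (38.5%, beside 20.6% of all 13606 genes above background) and 0 on suckling replicate 12 (beside 19.2%). The part of that 1 array in the higher means was not tested beyond the values without it given above.

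Disallowed genes outside the members showed no common direction, with 8 higher and 10 lower of 18 measured and a median of -0.04. Rest, a repressor of neuronal genes, was at background in both groups, and Gas6, a ligand of TAM receptors, differed by -0.39 (SE 0.22). Of 16 genes induced by hypoxia outside glycolysis, 9 were higher and 7 lower, with a median of 0.02. Pdk1, which restrains pyruvate dehydrogenase and so sends pyruvate towards lactate, read 5.95 ± 0.20 (SD, n = 3) against 5.10 ± 0.42 (n = 4). Ankrd37, an ankyrin repeat gene, read 7.06 ± 0.28 against 6.62 ± 0.10. These 2 of the 16 had groups that did not overlap, beside 7.32% of all genes, and an unadjusted p under 0.05 (limma), beside 7.7%. Their adjusted p was 0.548 and 0.612 (limma). Vegfa differed by 0.22 (SE 0.15).

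The genes most like each member in their pattern over the 7 arrays were named by Pearson's r among 9969 genes brighter than the median gene, as a description. These points share arrays and normalization, and 7 arrays leave many genes with high r. G6pc2 was most like Abcb4 (r = 0.979) and Fgfbp3 (0.974), and Aldoa was most like Ube2k (0.995) and Ubac1 (0.992). Aldoc was most like Spata24 (0.988) and Sp4 (0.984), and Ldhb was most like Coro1b (0.985) and Snrpb2 (0.984). All 4 of these last genes were highest on weaned replicate 4. Ldha was most like Gm10822 (0.985) and Ifnz (0.984), both highest on suckling replicate 2, and Gm10822 read the same value, 4.38, on weaned replicates 5 and 12 and suckling replicates 9 and 11. Among the members, r was 0.84 between Aldoc and Ldhb and -0.88 between Aldoa and Ldha over the 7 arrays.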

How the data were processed

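Total RNA of sorted cells of 7 mice, 3 weaned and 4 suckling, was measured on 1 Affymetrix array each. The intensity values deposited by the authors are 1 linear number per probe set and array, made with RMA in Partek (version 6.6), per the submitters' processing notes. Settings and genome build are not given in the sources used here. The values run from 1.45 to 12755, with array medians of 14.1 to 14.9, and log2 was taken here; all columns were used. The number of arrays limits the precision, with a median standard error of 0.14 for a log2 difference.

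Gene symbols came from the platform annotation (21789 probe sets with 1, 1621 with several, 12146 with none), with RefSeq transcripts of GRCm38.p6 used to sort the Hk1 probe sets. Groups were compared with limma 3.58.1 in R 4.3.3 (lmFit, eBayes, two-sided, no covariate, no filter, Benjamini-Hochberg over 23410 probe sets with a symbol). A gene outside the members was read from its brightest single-symbol probe set. Balances were compared by exact permutation.

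Text names all members, fixed isoform counterparts, in each other list the 2 genes of smallest p, and the 2 genes most like a member; a few marker genes, Vegfa and Bpgm were named after their values were seen. The members and lists were chosen with earlier results of these data known. Alternatives covered normalization, filters, probe set choice, weights, covariates, a pseudocount of 16 and each array left out. Genes without a single-symbol probe set are not analysed here, and some planned results are not reported here.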

Additional observations from a re-analysis of the deposited data

How the results depend on the processing

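The count of members past an adjusted p of 0.05 was 0 under every alternative run, also at 0.1 and with arrays left out, and 2 at an unadjusted p of 0.05 (Aldoc and Ldhb). Aldoa, Aldoc, both Ldhb probe sets and the Hk1 RefSeq probe set kept their direction in all alternatives that could be run, as did the Ldha minus Ldhb and Aldoa minus Aldoc balances. With 1 array left out, differences ran from 0.12 to 0.25 for Aldoa, 0.29 to 0.53 for Aldoc, 0.20 to 0.56 for the brighter Ldhb probe set and 0.16 to 0.55 for the other. Without weaned replicate 4, the unadjusted p of Aldoc and Ldhb was 0.122 and 0.0945 (limma).

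Values near 0 changed sign. The Hk1 minus Hk2 balance here is that of the brightest Hk1 probe set, shared with Rpl17, with 0.052 as its main value. With 1 array left out, G6pc2 ran from -0.047 to 0.074, the brightest Hk1 probe set from -0.0024 to 0.049, Hk2 from -0.15 to 0.076, Hk3 from -0.11 to 0.13, Ldha from -0.32 to 0.0020 and that balance from -0.027 to 0.15. Quantile normalization gave -0.035 for G6pc2, -0.010 for that Hk1 probe set, 0.012 for Hk2 and -0.022 for the balance. Hk2 was 0.0056 with arrays centred on their medians. G6pc2 was -0.0079 with array weights. The acinar covariate gave -0.059 for G6pc2 and 0.065 for Hk2, and the immediate early covariate -0.046 for G6pc2, 0.022 for Hk2 and -0.042 for Hk3. Without suckling replicates 2 and 9, chosen after the data were seen, G6pc2 was -0.019, Hk2 0.11, Ldha 0.061 and the balance -0.046. The cause was not tested. Centring moved the median of all probe sets from 0.0011 to 0.036. Hk2, Hk3, Ldha and the Hk1 RefSeq probe set lie under the median level and have no value with that filter. No paired analysis was possible because the groups share only replicate number 12. Signal over background limits Hk2, Hk3, the Hk1 RefSeq probe set, Slc16a1 and G6pc, where a fall could not be sized.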

Other observations

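Bpgm, which makes the regulator 2,3-bisphosphoglycerate from a glycolytic intermediate, read 7.96 log2 units on weaned replicate 4 and 6.15 to 6.61 on the other 6 arrays, so its difference of 0.40 (SE 0.37) came with a weaned SD of 0.95. In the marker lists, the genes with the smallest p were as follows, none past an adjusted p of 0.05 (limma). Among acinar markers they were Bhlha15, a transcription factor of secretory cells (-0.71), and Pnliprp1 (-1.99), and all 17 measured markers had the lower mean in weaned mice. Among beta cell markers they were Pdx1, which activates insulin transcription (0.33), and Glp1r (-0.22). Of 13 measured beta cell markers, 5 had the higher mean in weaned mice and 8 the lower. Irx2 (-0.31) and Rbp4 (-0.22) led the list of other islet cell markers, where 4 of 9 were higher and 5 lower. Muc1 (-0.65) and Krt19 (-0.54) led the duct list, where 3 of 5 measured markers had the higher mean in weaned mice and 2 the lower. Cldn5 (-0.71) and Pecam1 (-0.18) led the endothelial list (2 higher, 6 lower), and Col1a2 (-0.29) and Lum (0.10) the stromal list (3 higher, 4 lower). Tyrobp (0.30) and C1qa (0.34) led the leukocyte list. In that list 4 of 11 measured markers had the higher mean in weaned mice and 7 the lower, and Tyrobp was not above background. Sox10 (0.07) and Gfap (-0.06) led the Schwann and neural list (1 higher, 3 lower), and Nr4a1 (0.38) and Egr1 (0.51) the immediate early list.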
